A study of Mus musculus with 12 samples.

Results

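The transcripts described here are those of 10 genes of the circadian clock in mouse liver: *Per1*, *Per2*, *Per3*, *Cry2*, *Nr1d1*, *Nr1d2* and *Ciart*, which encode repressors of the clock, and *Dbp*, *Tef* and *Hlf*, which encode the PAR bZIP transcription factors driven by it. They were picked by gene symbol, as genes known to peak opposite to *Arntl*, with *Per1* and *Ciart* added as genes that Dex induces, at a time when earlier results of these data were known. They make up 10 of the 54838 genes in the table of raw read counts. RNA was sequenced from the livers of 12 adult female C57BL/6J mice in 4 groups of 3, all of one inbred strain without a transgene. The mice drank plain water or 25 mM ZnSO4 for 7 days, were then injected intraperitoneally with PBS or with 200 µg of Dex (dexamethasone, a drug that activates the glucocorticoid receptor), and were killed 2 h later. The groups are called water-PBS (plain water, PBS), zinc-PBS (ZnSO4, PBS), water-Dex (plain water, Dex) and zinc-Dex (ZnSO4, Dex). The study asked how zinc protects mice against lethal shock from the cytokine TNF, and as a part of this how zinc and glucocorticoids act together. The hour of the day at which the livers were taken is not given in the sources used here.

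In the mammalian clock, CLOCK (or NPAS2) and BMAL1, the product of *Arntl*, bind E-box sequences and switch on the *Per* and *Cry* genes, *Nr1d1*, *Nr1d2*, *Ciart* and *Dbp*. PER and CRY proteins then inhibit CLOCK and BMAL1, REV-ERBα and REV-ERBβ, the products of *Nr1d1* and *Nr1d2*, repress *Arntl*, and CIART (CHRONO) represses the same activators. DBP, TEF and HLF bind D-box sequences and pass the rhythm on to genes of liver metabolism, and glucocorticoids are among the hormones known to reset the clock of the liver.

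Promoter sequences are shown for the members whose windows hold an E-box or D-box of the kind just described, since these are the sequences that the clock and PAR bZIP proteins are known to bind. The windows are the 250 bases before a start site in RefSeq (assembly GRCm38.p6), read 5′ to 3′ on the strand of the gene, and 9 of the 10 members had one; *Per2* had none, and *Per1* and *Tef* had 2 each. They lie at chr3:95882229-95882478 on the minus strand for *Ciart*, chr11:69098699-69098948 on the plus strand for the upstream start of *Per1*, and chr4:151044666-151044915 on the minus strand for *Per3*. Those of *Tef* lie at chr15:81802423-81802672 and chr15:81811164-81811413, both on the plus strand. Capitals mark the E-box CACGTG in *Ciart*, *Per1* and *Tef*, and the D-box TTATGTAA in *Per3*.
Ciart: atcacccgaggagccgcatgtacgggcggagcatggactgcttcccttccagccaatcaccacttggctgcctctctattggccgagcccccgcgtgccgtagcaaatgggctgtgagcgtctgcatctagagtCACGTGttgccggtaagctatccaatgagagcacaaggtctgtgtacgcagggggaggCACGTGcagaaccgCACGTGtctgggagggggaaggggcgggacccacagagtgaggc
Per1, upstream start: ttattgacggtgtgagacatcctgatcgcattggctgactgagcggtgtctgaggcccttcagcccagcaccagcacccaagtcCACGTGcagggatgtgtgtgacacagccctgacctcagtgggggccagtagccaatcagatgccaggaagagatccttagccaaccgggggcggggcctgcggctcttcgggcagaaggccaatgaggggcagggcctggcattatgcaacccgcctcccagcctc
Tef, upstream start: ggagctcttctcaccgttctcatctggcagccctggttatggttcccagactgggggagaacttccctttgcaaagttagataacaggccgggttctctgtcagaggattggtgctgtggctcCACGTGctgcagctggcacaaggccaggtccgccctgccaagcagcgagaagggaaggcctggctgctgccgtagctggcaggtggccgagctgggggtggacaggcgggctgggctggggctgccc
Tef, downstream start: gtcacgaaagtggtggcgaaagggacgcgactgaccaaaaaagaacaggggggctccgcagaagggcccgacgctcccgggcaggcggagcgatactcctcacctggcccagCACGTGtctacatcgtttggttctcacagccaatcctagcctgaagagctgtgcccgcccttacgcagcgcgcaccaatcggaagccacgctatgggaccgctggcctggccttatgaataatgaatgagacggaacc
Per3: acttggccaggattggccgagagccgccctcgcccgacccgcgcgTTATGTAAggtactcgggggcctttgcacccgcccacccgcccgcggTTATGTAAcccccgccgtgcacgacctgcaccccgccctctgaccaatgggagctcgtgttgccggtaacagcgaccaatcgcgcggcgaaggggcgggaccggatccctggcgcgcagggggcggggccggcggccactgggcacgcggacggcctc

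The E-box CACGTG stood in the windows of 3 members and in 6.02% of all 32851 windows, searched on both strands. In *Ciart* it occurred 3 times, its first base 116, 58 and 44 bases before the start. The related letters CACGTT were found in *Cry2* and *Nr1d1*, and in 3.85% of windows. The D-box TTATGTAA occurred at 205 and 158 bases before the start of *Per3*, and in 0.819% of windows, while its variant TTACGTAA was in no member and in 0.113%. The ROR element TAGGTCA was in no member window and in 2.23% of windows. The cyclic AMP response element TGACGTCA was found in *Hlf*, 9 bases before the start, and in 1.55% of windows. A single glucocorticoid receptor site, AGAACA, was found in the downstream window of *Tef* and in 16.1% of windows. The palindrome of 2 such sites facing each other across 3 bases was in no member and in 0.00913% of windows. A match is a string of letters and was not tested for binding, and a missing match says only that these letters are not in this window.

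The libraries held between 9091152 and 12303527 counts, with 5.46 to 6.17% of counts in mitochondrial genes, and every pair of mice in a group differed by more than counting noise. The treatments were checked on genes known to answer them. *Fkbp5*, *Tsc22d3*, *Sgk1* and *Tat*, which are 4 of 5 chosen targets of the glucocorticoid receptor, were called higher in both Dex comparisons. The other one, *Zbtb16*, was called on water (1.80, DESeq2 adjusted p = 0.0173) and not on zinc (1.23, adjusted p = 0.149). *Mt1* and *Mt2*, which encode the zinc-binding metallothioneins, were called higher in zinc-PBS than in water-PBS, and *Slc39a4*, which encodes a zinc importer, was called lower there. The 6 hepatocyte markers summed to between 115500 and 138400 CPM (counts scaled to the same total in every library) and none was at or under 3 counts. The 4 lymphocyte markers summed to 22.7 to 26.0 CPM in the 6 PBS-injected mice and to 13.2 to 18.9 CPM in the 6 Dex-injected mice, and *Cd3e* and *Cd79a* had at most 3 counts in each water-Dex library. The 5 Kupffer cell and macrophage markers summed to 350.1 to 430 CPM after PBS and 299 to 374 CPM after Dex. The 5 endothelial markers summed to 248 to 285 CPM, the 5 stellate cell markers to 301 to 349 CPM, the 4 cholangiocyte markers to 5.19 to 14.0 CPM and the 5 red blood cell markers to 74.2 to 183 CPM. The 4 gut epithelial markers summed to 62.5 to 82.6 CPM after PBS and 49.1 to 61.0 CPM after Dex, without overlap, and *Muc2* had at most 3 counts in each Dex-injected mouse. The 5 exocrine pancreas markers summed to 5.32 to 12.0 CPM, with *Cpa1*, *Prss2* and *Pnlip* at no more than 3 counts in every library. The part of other cell types in the results below was not tested. In a sample of whole liver, fewer cells of a type and less RNA per cell cannot be told apart.

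Values are normalized read counts, the raw counts divided by each library's size factor, and changes are log2 fold changes with their standard errors (SE) from DESeq2. A gene was called higher or lower at an adjusted p under 0.05 with a log2 fold change beyond 0.8 in either direction. The labels do not say that the mice of a group were handled separately, so p-values measure the spread between these mice. A single value compared between 3 and 3 mice cannot reach an exact permutation p below 0.10.

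Per length of transcript, *Nr1d1* was the most abundant member in water-PBS, at 81.3 ± 18.2 TPM (mean ± SD, n = 3), above every value of the next gene. TPM are counts per base of exon, scaled to the same total in every library. *Nr1d2* followed at 32.9 ± 0.565 TPM, and then *Tef* at 20.7 ± 5.49 TPM and *Hlf* at 18.4 ± 5.10 TPM, whose mice overlapped. *Cry2* at 8.64 ± 1.60 TPM, *Dbp* at 6.80 ± 4.64 TPM and *Per1* at 5.84 ± 2.82 TPM overlapped as well. *Per2* at 3.7 ± 1.55 TPM, which overlapped *Per1*, *Per3* at 1.10 ± 0.785 TPM and *Ciart* at 0.706 ± 0.671 TPM came last, and the last pair overlapped. The order was another one in water-Dex, where *Hlf* at 27.5 ± 5.28 TPM and *Nr1d2* at 26.8 ± 3.23 TPM were the most abundant and overlapped. There *Ciart* had 18.6 ± 1.93 TPM and *Nr1d1* 16.2 ± 3.73 TPM, within each other's range, and *Dbp* at 0.485 ± 0.361 TPM and *Per3* at 0.293 ± 0.0616 TPM were the least abundant.

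**Figure D1:**
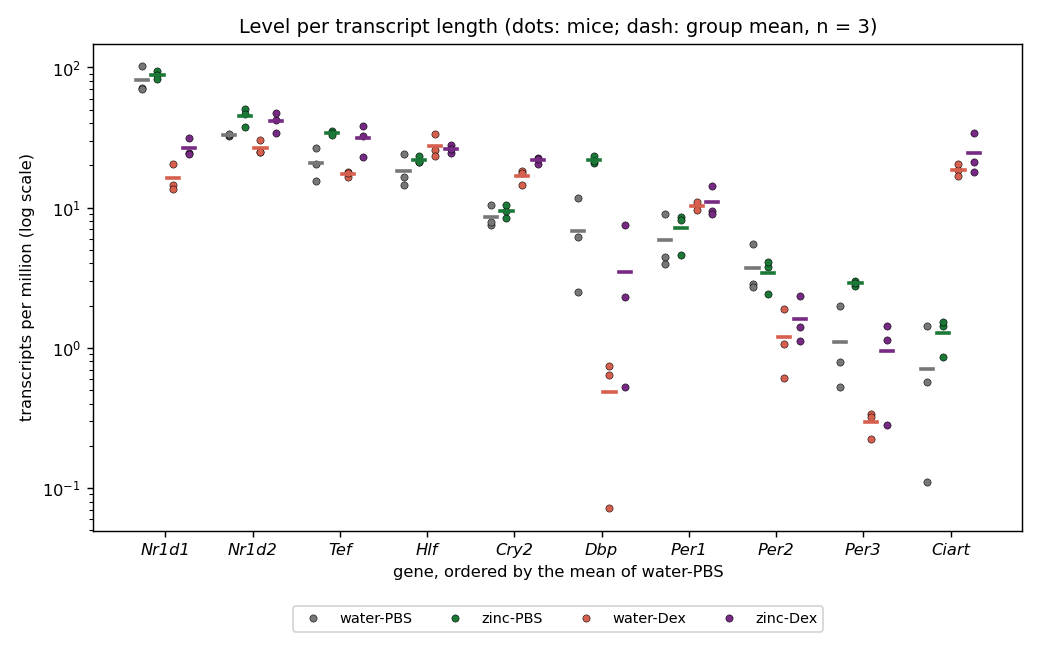
Level of the 10 genes in TPM (log scale), ordered by the mean of water-PBS; dots are mice, dashes are group means (n = 3). *Nr1d1* stands highest in water-PBS with a mean of 81.3, while *Ciart* moves from a mean of 0.706 in water-PBS to 18.6 in water-Dex and *Dbp* from 6.80 to 0.485.

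Injection of Dex moved 7 of the 10 members in mice on plain water, in both directions: *Ciart*, *Cry2* and *Per1* rose, and *Dbp*, *Nr1d1*, *Per3* and *Per2* fell. Of all 14221 genes tested in this comparison, 4.89% were called higher and 4.79% lower, against 3 and 4 of the 10 members. Since *Per1* and *Ciart* were picked as induced by Dex, the count of members called higher is partly set by that choice, and nothing is read from it. In mice on zinc, 6 members moved, with *Ciart*, *Cry2* and *Per1* higher and *Dbp*, *Nr1d1* and *Per3* lower, and of 15657 genes tested 5.0% were called higher and 4.68% lower. These 2 Dex comparisons share no library. The median log2 fold change of the members was −0.09 in mice on water and 0.10 on zinc, and that of all genes tested was −0.01 in both.

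Among the repressors of CLOCK and BMAL1, *Ciart* changed most. *Ciart* and *Per1* had been picked as genes that Dex induces, so their rise with Dex, and this rank, are partly set by that choice. The 3 mice of water-PBS, in the order of their replicate numbers here and below, had 1.05, 5.46 and 13.2 normalized counts, and those of water-Dex 199, 182 and 216. The zinc-PBS mice had 13.5, 14.0 and 8.15, against 236, 200 and 368 for zinc-Dex. Every Dex-injected mouse stood above every PBS-injected mouse, and the PBS libraries held only between 1 and 16 raw counts of the gene. *Ciart* rose with Dex by a log2 fold change of 4.95 (SE 0.410, DESeq2 adjusted p = 1.95e-31) on water and 4.49 (SE 0.332, adjusted p = 1.38e-39) on zinc. Its change on water ranged from 4.46 to 5.87 over the alternatives, and the gene was called in 17 of 17 on either drink.

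*Cry2*, a blue-light receptor homologue that inhibits CLOCK and BMAL1 together with the PER proteins, had 200, 210 and 269 normalized counts in water-PBS and 438, 551 and 514 in water-Dex. On zinc it had 225, 241 and 278 after PBS and 702, 645 and 677 after Dex. The groups did not overlap on either drink. *Cry2* rose by a log2 fold change of 1.15 (SE 0.137, DESeq2 adjusted p = 3.04e-15) on water and 1.44 (SE 0.134, adjusted p = 4.01e-25) on zinc, and was called in 17 of 17 alternatives in both. *Cry2* and *Tef* share 4.7% and 2.5% of their exon bases with genes on the opposite strand, whose counts were at most 10 and 2.

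The 3 period genes, whose products form the repressive complex with the CRY proteins, did not move in one direction. *Per1* had 105, 215 and 91.2 normalized counts in water-PBS and 278, 258 and 287 in water-Dex, with 202, 188 and 108 in zinc-PBS against 260, 251 and 386 in zinc-Dex. All Dex-injected mice lay above the PBS-injected mice on the same drink. *Per1* rose by a log2 fold change of 1.0 (SE 0.290, DESeq2 adjusted p = 0.00445) on water and 0.85 (SE 0.287, adjusted p = 0.0192) on zinc. The call on water was lost without water-PBS replicate 3, with a log2 fold change of 0.78, and under the replicate block, with an adjusted p of 0.0506. On zinc it was lost without zinc-PBS replicate 3, zinc-Dex replicate 1 or zinc-Dex replicate 3, with adjusted p of 0.139, 0.125 and 0.166, and under the replicate block at 0.112.

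*Per2* had 70.4, 67.3 and 131 normalized counts in water-PBS and 29.4, 17.0 and 51.5 in water-Dex, and the groups did not overlap. *Per2* fell with Dex on water, with a log2 fold change of −1.45 (SE 0.382, DESeq2 adjusted p = 0.00135), and was called in 17 of 17 alternatives. On zinc the counts were 59.6, 89.2 and 99.6 after PBS and 40.2, 32.2 and 65.4 after Dex, and these groups overlapped. There the log2 fold change was −0.84 (SE 0.373, adjusted p = 0.0975), with a 95% interval from −1.58 to −0.11. It was called on zinc without zinc-Dex replicate 3 (−1.19, adjusted p = 0.0247), with only the 6 libraries compared and under the replicate block, of 17 alternatives in which adjusted p ran from 0.0102 to 0.320. The change in *Per2* on zinc and on water was not distinguishable, with an interaction of 0.60 (95% interval −0.44 to 1.65).

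*Per3* had 21, 31.9 and 78.0 normalized counts in water-PBS and 15.2, 14.9 and 9.89 in water-Dex, with 121, 108 and 117 in zinc-PBS against 53.2, 13.3 and 65.4 in zinc-Dex. The Dex-injected mice lay below the PBS-injected mice on each drink. *Per3* fell, with a log2 fold change of −1.71 (SE 0.507, DESeq2 adjusted p = 0.00573) on water and −1.39 (SE 0.458, adjusted p = 0.0160) on zinc. The call on water was lost without water-PBS replicate 2 or 3 or without any 1 of the 3 water-Dex mice, with adjusted p of 0.0543, 0.157, 0.0783, 0.0889 and 0.149. On zinc the gene was called in 8 of 17 alternatives, with adjusted p up to 0.123, and the log2 fold change stayed between −1.79 and −0.96. The libraries whose removal ended the call on zinc were water-PBS replicate 2, zinc-PBS replicates 1 and 3, and each of the water-Dex mice (adjusted p 0.0552 to 0.104), with zinc-Dex replicates 1 and 2 (0.123 and 0.0714), and a filter on low counts gave 0.0704.

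The REV-ERB genes parted. *Nr1d1* had 1321, 916 and 885 normalized counts in water-PBS and 211, 302 and 193 in water-Dex, with 1223, 1096 and 1066 in zinc-PBS against 478, 377 and 353 in zinc-Dex. No Dex-injected mouse reached a PBS-injected one. The fall in *Nr1d1* came to a log2 fold change of −2.15 (SE 0.188, DESeq2 adjusted p = 4.86e-28) on water and −1.49 (SE 0.185, adjusted p = 3.35e-14) on zinc, and it was called in 17 of 17 alternatives in each. *Nr1d2* stood at 732, 754 and 733 in water-PBS and 643, 795 and 623 in water-Dex, and the groups overlapped. Its log2 fold change was −0.11 on water, with a 95% interval from −0.39 to 0.17, and 0.11 on zinc, with an interval from −0.16 to 0.38. *Nr1d1* shares 263 exon bases (8.5% of its exon length) with *Thra*, which encodes a thyroid hormone receptor on the opposite strand, and *Thra* was not called in either Dex comparison.

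The PAR bZIP genes moved apart as well. *Dbp* had 31.5, 77.4 and 143 normalized counts in water-PBS and 9.14, 10.6 and 0.989 in water-Dex, with 260, 286 and 270 in zinc-PBS against 33.7, 7.78 and 108 in zinc-Dex. It was lower in every Dex-injected mouse than in any PBS-injected mouse on the same drink. The fall in *Dbp* came to a log2 fold change of −3.60 (SE 0.965, DESeq2 adjusted p = 0.00167) on water, called in 17 of 17 alternatives, and −2.45 (SE 0.915, adjusted p = 0.0395) on zinc. The call on zinc held in 10 of 17 alternatives and was lost without water-PBS replicate 2, water-Dex replicate 1, zinc-Dex replicate 1 or 2, or any 1 of the zinc-PBS mice, with adjusted p from 0.0507 to 0.154. *Dbp* shares 539 exon bases (18% of its exon length) with *Sphk2*, which encodes a sphingosine kinase on the opposite strand. *Sphk2* was itself lower with Dex, by −1.26 on water and −1.01 on zinc on the log2 scale, and the strand setting of the counting is not given in the sources used here, so the level of *Dbp* is uncertain by this overlap.

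*Hlf* had 408, 461 and 657 normalized counts in water-PBS and 817, 746 and 1033 in water-Dex, with 656, 572 and 589 in zinc-PBS against 914, 814 and 839 in zinc-Dex. The Dex-injected mice lay above the others on both drinks. Its log2 fold change of 0.77 (SE 0.165, DESeq2 adjusted p = 4.40e-05) on water and 0.50 (SE 0.164, adjusted p = 0.0157) on zinc passed the test of no change but not the fold threshold. It passed the threshold on water without water-PBS replicate 3 (0.99), water-Dex replicate 1 (0.81) or water-Dex replicate 2 (0.87). Over 17 alternatives its adjusted p ran up to 0.00331 on water and 0.0804 on zinc. *Tef* had 510, 672 and 846 in water-PBS and 620, 674 and 641 in water-Dex, which overlapped, and its log2 fold change was −0.07 on water (95% interval −0.42 to 0.28) and 0.09 on zinc (−0.25 to 0.44).

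**Figure D2:**
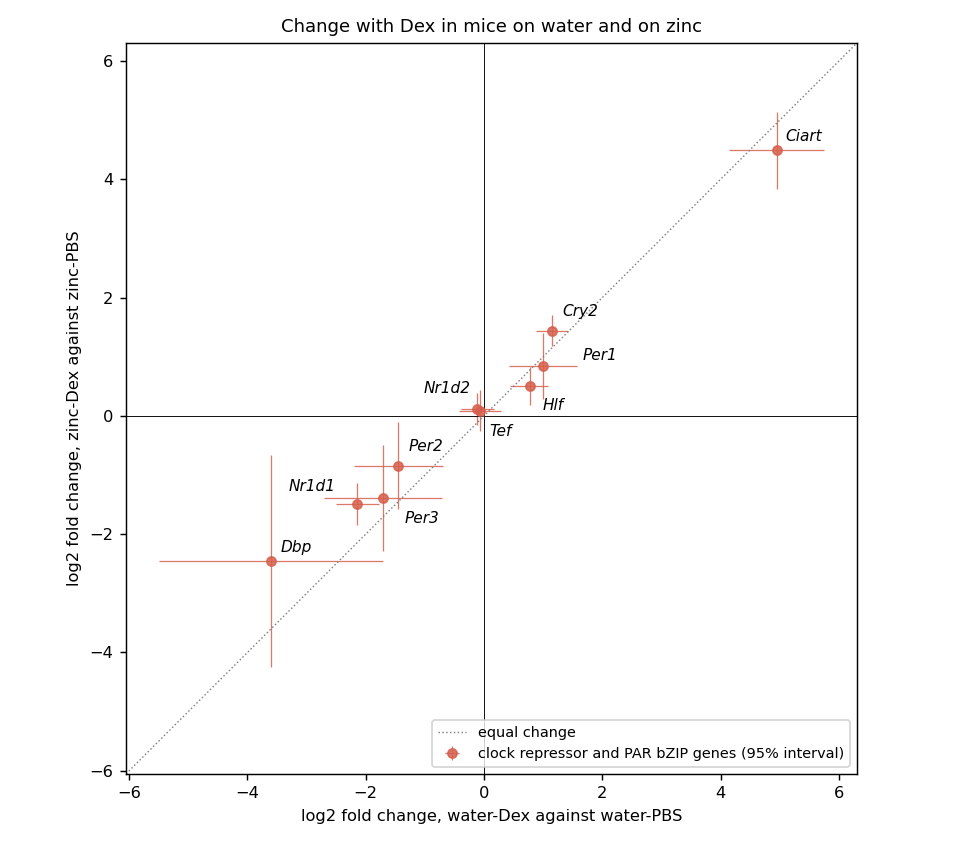
Log2 fold change with Dex of the 10 genes in mice on water (horizontal) and on zinc (vertical) from DESeq2, with 95% intervals and a dotted line of equal change. *Ciart* lies far to the upper right (4.95 and 4.49) and *Dbp* to the lower left (−3.60 and −2.45), while *Tef* and *Nr1d2* lie at the origin.

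In the mice injected with PBS, zinc gave 0 calls among the members by DESeq2 and 0 by edgeR, while 0.0813% of 12307 genes tested were called higher and 0.0569% lower. At an unadjusted p under 0.05, 3 members differed, as did 5.74% of all genes tested, and 9 of 10 log2 fold changes were above 0, with a median of 0.36 against 0.00 over all genes tested. *Tef* stood at 1170, 1090 and 1093 normalized counts in zinc-PBS against 510, 672 and 846 in water-PBS, with no overlap. Its log2 fold change of 0.73 (SE 0.176, DESeq2 adjusted p = 0.0163) missed only the fold threshold in the main fit. It reached 0.92 without water-PBS replicate 3, the only call among 17 alternatives. These ran from 0.56 to 0.92, with adjusted p up to 0.209. *Per3*, at 108 to 121 in zinc-PBS and 21 to 78.0 in water-PBS, did not overlap either and had a log2 fold change of 1.41 (SE 0.457, adjusted p = 0.241). It was called without water-PBS replicate 3 (2.12, adjusted p = 0.000718), without zinc-Dex replicate 2 (adjusted p = 0.0232) and with only the 6 libraries compared (0.0107), among 16 alternatives with adjusted p up to 1.0.

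*Dbp* and *Nr1d2* completed the members whose zinc-PBS mice all lay above the water-PBS mice. The share of all genes that separated in this way is not given here, and nothing is read from how many members did. *Dbp* was at 260 to 286 against 31.5 to 143, with a log2 fold change of 1.70 (SE 0.911, DESeq2 adjusted p = 0.896). *Nr1d2* was at 1150, 1019 and 852 against 732, 754 and 733, with a log2 fold change of 0.45 (SE 0.141, adjusted p = 0.203). For *Cry2*, *Nr1d1*, *Per1*, *Per2*, *Hlf* and *Ciart* the groups overlapped, with log2 fold changes between −0.11 and 0.89.

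In the mice injected with Dex, zinc gave 2 calls, *Tef* and *Per3*, both higher in zinc-Dex, while 0.305% of 12786 genes tested were called higher and 0.164% lower. With *Nr1d1* and *Nr1d2*, 4 members had an adjusted p under 0.05 whatever the fold, and the share of all genes at that cut is not given here. At an unadjusted p under 0.05, 6 members differed, as did 10.2% of all genes tested. The median log2 fold change of the members was 0.58 against 0.00 over all genes tested. *Tef* had 1247, 899 and 1430 normalized counts in zinc-Dex and 620, 674 and 641 in water-Dex, with no overlap. *Tef* rose with a log2 fold change of 0.89 (SE 0.177, DESeq2 adjusted p = 0.000337), and the call was lost in 1 of 17 alternatives, without zinc-Dex replicate 3, when the change was 0.73.

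*Per3* had 53.2, 13.3 and 65.4 normalized counts in zinc-Dex and 15.2, 14.9 and 9.89 in water-Dex, so that zinc-Dex replicate 2 lay within the range of water-Dex. Its log2 fold change was 1.73 (SE 0.507, DESeq2 adjusted p = 0.0498), at the edge of the threshold, and it was called in 6 of the 15 alternatives that gave an adjusted p, with a highest of 0.620. edgeR gave an adjusted p of 0.220 and the filter on low counts 0.186. The call was also lost without water-PBS replicate 2, any 1 of the zinc-PBS mice, water-Dex replicate 1 or 3, or zinc-Dex replicate 1, with adjusted p from 0.0593 to 0.620.

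*Nr1d1* had 478, 377 and 353 normalized counts in zinc-Dex and 211, 302 and 193 in water-Dex, and the groups did not overlap. Its log2 fold change of 0.77 (SE 0.191, DESeq2 adjusted p = 0.00815) was under the fold threshold, and passed it without water-Dex replicate 2 (0.99), zinc-Dex replicate 2 (0.82) or zinc-Dex replicate 3 (0.86). Over the 17 alternatives it ran from 0.63 to 0.99, with adjusted p up to 0.143. *Nr1d2* had 1121, 910 and 1229 against 643, 795 and 623, with no overlap and a log2 fold change of 0.66 (SE 0.141, adjusted p = 0.00110). *Cry2* did not overlap either, at 645 to 702 against 438 to 551, with a log2 fold change of 0.43 (SE 0.130, adjusted p = 0.0621).

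*Dbp* spread widely in zinc-Dex, at 33.7, 7.78 and 108 normalized counts, against 9.14, 10.6 and 0.989 in water-Dex. Its log2 fold change of 2.85 (SE 0.968, DESeq2 adjusted p = 0.136) was not called. Without zinc-Dex replicate 2, which lay within the range of water-Dex, it was 3.36 (adjusted p = 0.00939). That was the only call among 16 alternatives, which went down to 1.59 when 1 library was left out, with adjusted p up to 0.653. *Sphk2*, which overlaps *Dbp* on the other strand, differed by 0.57 in the same comparison (adjusted p = 0.00582). *Per1*, *Per2*, *Hlf* and *Ciart* overlapped between the groups, with log2 fold changes from −0.02 to 0.49.

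**Figure D3:**
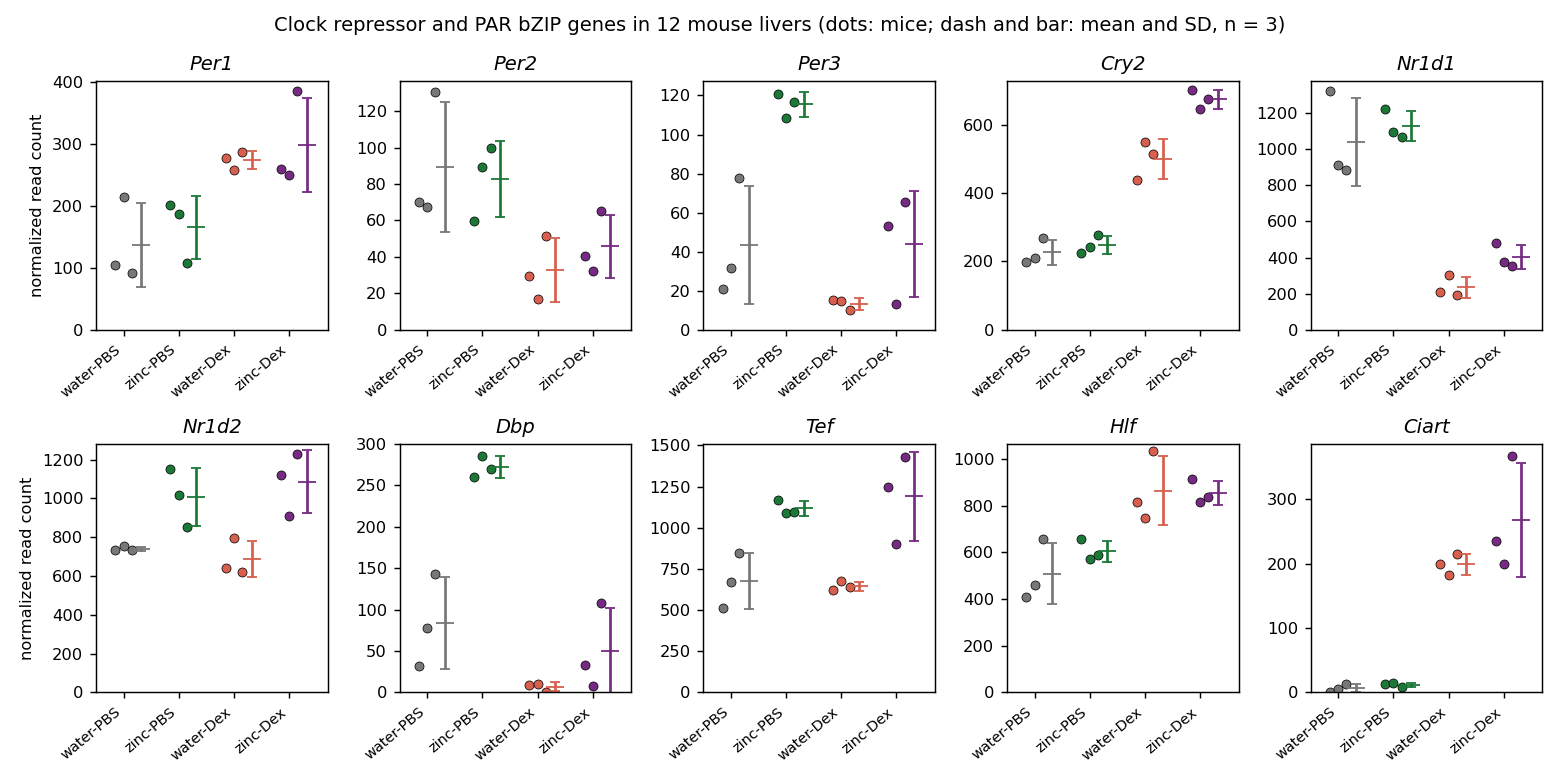
Normalized read count of each gene in the 12 livers by group; dots are mice, the dash and bar beside them are the mean and SD (n = 3). *Tef* and *Nr1d2* stand higher in both zinc groups than in the water group with the same injection, *Nr1d1* and *Dbp* drop with Dex, and *Ciart* goes from at most 14.0 without Dex to at least 182 with it.

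The interaction asks whether the change with Dex was different on zinc. No member was called by DESeq2 or by edgeR, and 1 member, *Nr1d1*, had an unadjusted p under 0.05, which 1.99% of all genes tested had. Its p was 0.0127, with an interaction of 0.66 (SE 0.264, adjusted p = 0.999). Of 26185 genes tested, 0.00382% were called higher and 0.0153% lower. The other comparisons tested 12307 to 15657 genes. The shares given for the interaction are thus over a wider set of genes, nearly all those with a count, and cannot be set beside the other shares. The median interaction of the members was 0.26, against 0.02 over all genes tested. The intervals were wide for the low genes, from −1.45 to 3.76 for *Dbp* and from −1.02 to 1.66 for *Per3*, and narrow for *Nr1d2*, from −0.17 to 0.61, and *Tef*, from −0.33 to 0.65.

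The 2 zinc comparisons share no library, and the zinc effect averaged over both injections was computed as well. This contrast was added because most members had been seen to have log2 fold changes above 0 in both, except *Per2* after PBS (−0.11) and *Hlf* after Dex (−0.02). It sums up those values and is no further evidence of their direction. It gave 3 calls, all higher with zinc, while 0.187% of 12307 genes tested were called higher and 0.146% lower, and the median log2 fold change of the members was 0.50. *Tef* had a log2 fold change of 0.81 (SE 0.125, DESeq2 adjusted p = 1.11e-07), *Per3* of 1.57 (SE 0.342, adjusted p = 0.000946) and *Dbp* of 2.27 (SE 0.665, adjusted p = 0.0324). *Nr1d2* at 0.55 (SE 0.0997, adjusted p = 1.77e-05) and *Nr1d1* at 0.45 (SE 0.132, adjusted p = 0.0356) passed the test below the fold threshold. Over 16 alternatives their adjusted p ran up to 0.0165 for *Nr1d2* and 0.17 for *Nr1d1*.

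The 3 calls of the averaged contrast rested on single libraries to differing degrees. *Tef* kept an adjusted p under 0.05 in every alternative and lost its call to the fold threshold alone, at 0.72 to 0.79, without water-PBS, zinc-PBS, water-Dex or zinc-Dex replicate 1 or zinc-Dex replicate 3. *Per3* lost its call without water-PBS replicate 2, water-Dex replicate 1 or 3, or zinc-Dex replicate 1, with adjusted p from 0.0514 to 0.0988. *Dbp* was called in 5 of 16 alternatives and lost its call with edgeR (adjusted p = 0.0552), under the replicate block (0.0895) and without water-PBS replicate 1 or 2, any 1 of the zinc-PBS mice, water-Dex replicate 1 or 3, or zinc-Dex replicate 1 or 3 (up to 0.155). *Ciart*, not called at 0.66, reached 1.12 (adjusted p = 0.0341) without water-PBS replicate 3. That was its only call among 16 alternatives, which went down to 0.41, with adjusted p up to 0.666.

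In water-PBS and zinc-Dex, and less so in the other groups, many members were highest or lowest in the same mouse, as a description with no test. The share of all genes with their highest or lowest value in these mice is not given here. Nothing about the members is read from these counts. In water-PBS, replicate 3 had the highest value of 7 of the 10 members and replicate 1 the lowest of 7. In zinc-Dex, replicate 2 had the lowest value of 9 of 10 and replicate 3 the highest of 7. No mouse held more than 6 of the highest or more than 4 of the lowest values in zinc-PBS or water-Dex.

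The activators and the genes known to peak with *Arntl* formed the counterpart of the members in the loop. Of 7 such genes, 6 had counts, and *Rorb* had none. With Dex, *Nfil3*, a repressor that competes with the PAR bZIP factors for D-boxes, rose by a log2 fold change of 1.60 on water and 1.95 on zinc, and *Rora*, an activator of *Arntl*, by 1.10 and 0.93. *Clock* at 0.42 and 0.34 had an adjusted p under 0.05 on both drinks, below the fold threshold. The median of the 6 was 0.23 on water and 0.09 on zinc. In zinc-Dex against water-Dex, 3 were called lower and none higher, with a median of −0.86. *Arntl* fell by 1.28 on the log2 scale (SE 0.290, DESeq2 adjusted p = 0.00252), *Npas2* by 1.80 (SE 0.512, adjusted p = 0.0387) and *Cry1* by 1.16 (SE 0.318, adjusted p = 0.0271). In zinc-PBS against water-PBS none of them was called in the fit used here, and the median was −0.73. *Arntl* was at −0.92 (adjusted p = 0.189) and *Npas2* at −1.60 (adjusted p = 0.192), each with no overlap between the groups. The paper, in contrast, lists both *Arntl* and *Npas2* among the liver genes that were lower with zinc. The fit used here took in the libraries of all groups, and why its calls differ from that list was not tested.

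**Figure D4:**
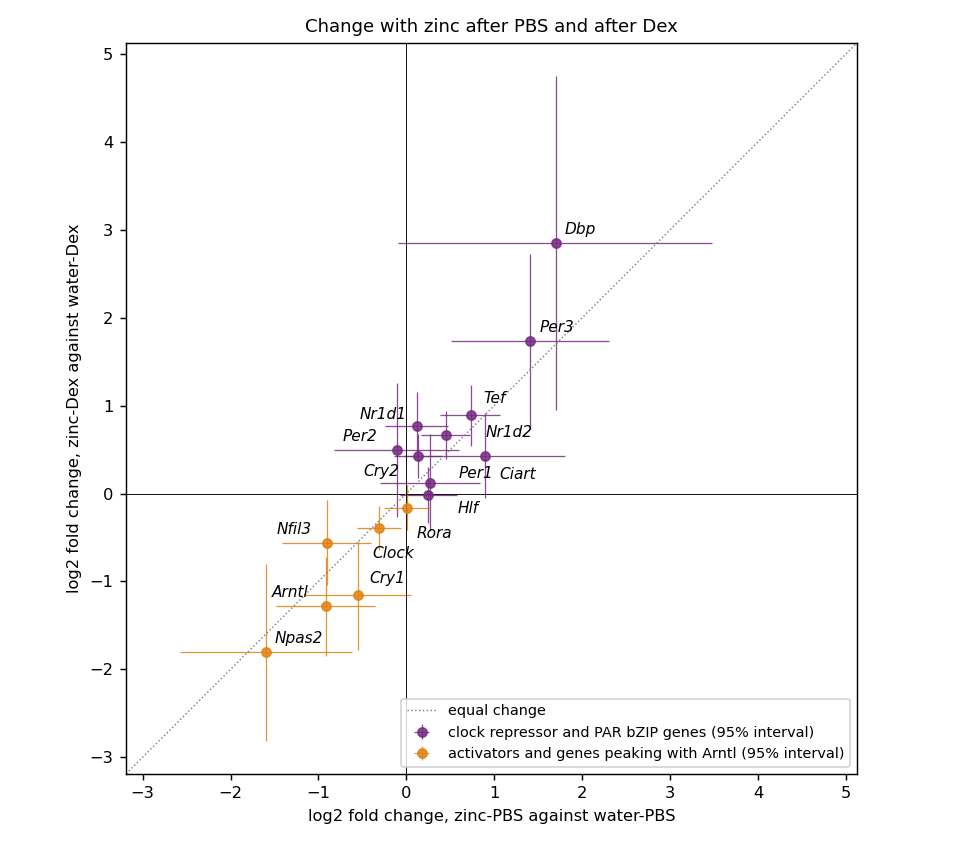
Log2 fold change with zinc after PBS (horizontal) and after Dex (vertical) from DESeq2, with 95% intervals and a dotted line of equal change, for the 10 members (purple) and 6 activators and genes peaking with *Arntl* (orange). *Dbp*, *Per3* and *Tef* lie to the upper right and *Npas2* (−1.60 and −1.80) and *Arntl* (−0.92 and −1.28) to the lower left.

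Of 3 other repressors, *Bhlhe40* fell with Dex by 1.55 on water and 1.64 on zinc on the log2 scale and *Timeless* by 1.12 and 1.17. *Bhlhe41*, with group means of 0.320 to 5.36 normalized counts, was called lower on zinc (adjusted p = 0.0395) and had no adjusted p on water. Among 7 genes that act on the stability of PER and CRY, *Usp2*, a deubiquitinase, rose with Dex by 2.64 on water and 2.30 on zinc. *Fbxl21*, a subunit of a ubiquitin ligase for CRY, was called lower on water at −0.86 (adjusted p = 0.0120) and not on zinc at −0.72 (0.0467), by the fold threshold. *Csnk1d*, the casein kinase that phosphorylates PER, was at 0.61 on both drinks, under the fold threshold, and no gene of either list was called with zinc.

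Of 7 genes known as targets of the PAR bZIP factors in liver, 3 were called higher with Dex and none was called lower on either drink. *Upp2*, a uridine phosphorylase, rose by 2.48 on water and 2.12 on zinc on the log2 scale. *Alas1*, the first enzyme of haem synthesis, rose by 2.32 and 2.53, and *Por*, the reductase of the microsomal cytochromes P450, by 1.51 and 1.42. *Cyp7a1*, the rate-limiting enzyme of bile acid synthesis, *Cyp2a4*, *Cyp2a5* and *Nr1i3*, which encodes the nuclear receptor CAR, were not called. *Nr1i3* differed by −0.50 with Dex on water (DESeq2 adjusted p = 4.27e-05), under the fold threshold, and its Dex-injected mice lay below the PBS-injected mice on both drinks. The median of the list was 0.00 on water and −0.11 on zinc with Dex, and 0.33 after PBS and 0.24 after Dex with zinc, and none of the 7 was called with zinc. The *Cyp2a4* and *Cyp2a5* sequences are close copies, and their counts are uncertain where reads could not be placed.

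For each member called in a comparison of 2 groups, the nearest profile was sought among the 9563 genes averaging 50 normalized counts or more, by the root mean square difference of log2(normalized count + 1) over the 12 libraries after each gene's own mean was taken off. *Sec14l4* lay nearest to *Cry2* (0.155), *Adssl1* to *Tef* (0.222), *Sdc4* to *Per1* and *Gm17753* to *Nr1d1* (0.244 each), and *Plk2* to *Per2* (0.352). *Per3*, *Dbp* and *Ciart*, which varied most about their own means (1.25, 2.23 and 2.49), had more distant neighbours. *Nab2* lay nearest to *Per3* (0.642), *Lcn2* to *Ciart* (0.737) and *Foxq1* to *Dbp* (1.16). The second neighbours were *Ctdspl* for *Cry2* (0.168), *Limd2* for *Tef* (0.227), *Kank1* for *Nr1d1* (0.278), *Sema6b* for *Per1* (0.282), *Klhdc7a* for *Per2* (0.391), *Slc30a1* for *Per3* (0.725), *Gadd45g* for *Ciart* (0.751) and *Tgm1* for *Dbp* (1.29). The members themselves varied about their means by 0.454 (*Tef*) to 2.49 (*Ciart*) on this scale.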

How the data were processed

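Livers of 12 mice (4 groups of 3, assigned from the labels) were sequenced from stranded single-end libraries. The authors mapped the reads to mm10 with hisat (HISAT2 2.0.4 in the submitters' processing notes) and counted them per Ensembl gene with featureCounts without multimapping reads. The deposited values are these raw counts, not normalized, and sum to 9091152 to 12303527 per library. The annotation release and strand setting of the counting are not given in the sources used here. Symbols, exon lengths and overlaps came from GENCODE M21 (GRCm38, the same build), which named 54809 of 54838 identifiers, and promoter sequences from RefSeq on GRCm38.p6.

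The members, gene lists and tests were chosen with earlier results of these data known. The whole table was fitted once with DESeq2 1.42.0 in R 4.3.3, following the study's methods, with 1 coefficient per group, size factors, Wald tests and unshrunken changes, with p-values adjusted by Benjamini-Hochberg over all genes tested. Calls needed an adjusted p under 0.05 and a log2 fold change beyond 0.8. TPM were computed from the counts and the summed exon length. All members and all genes of the lists are named, with the 2 nearest profiles of each called member, except that 2 genes of the lists are not reported here and were left out of the counts, sums and medians. In simulated counts for zinc-Dex against water-Dex over 13255 genes, 92% of 200 changed genes were recovered with 7 false calls. The changed genes were drawn from those averaging 50 counts or more, with changes larger than that of *Tef* in this comparison. *Per3* and *Dbp* had lower means in both of these groups, so the share recovered does not measure the power for these members.

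The alternatives were edgeR 4.0.16 (quasi-likelihood), TMM factors in DESeq2, a filter of 10 counts in 3 libraries, the replicate number as a block, each library left out, only the 6 libraries compared, and no fold threshold. The zinc effect averaged over both injections was added after seeing the data. Precision is limited by 3 mice per group.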

Additional observations from a re-analysis of the deposited data

How the results depend on the processing

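In the comparisons of 2 groups, the interaction and the averaged contrast, 911 of 983 values of single members kept their side of the threshold, 57 lost a call, 15 gained one, and none that was called turned its direction, while 17 gave no adjusted p and were left out. Part of this agreement is built in, as are the counts of alternatives given above. Leaving out a library outside a comparison of 2 groups hardly moved the log2 fold change, though adjusted p could change. The interaction had no call to lose. The number of members called with Dex on water was 7, with 6 to 7 when 1 library was left out. On zinc it was 6, with 3 to 6, the lowest without zinc-PBS replicate 3 or zinc-Dex replicate 1. The number called with zinc after PBS was 0, and became 1 with no fold threshold, 1 with only the 6 libraries compared, and 0 to 2 without 1 library. After Dex it was 2, and became 4 with no fold threshold, 1 with edgeR, 1 with the filter on low counts, and 1 to 4 without 1 library. For the averaged zinc effect it was 3, and became 5 with no fold threshold and 0 to 4 without 1 library, with 0 without water-Dex replicate 1 or zinc-Dex replicate 1. The causes were not tested. The share of all genes called with no fold threshold is not given here, and nothing is read from the member counts at that setting. In fits of TMM factors the counts did not change. The labels do not say whether the replicate numbers pair the mice. The correlation of deviations between mice of the same number lay between −0.204 and 0.191 over 18 pairs, was above 0.1 in 1, and was the best match in 4. No pairing was seen, though with 3 mice per group these values cannot exclude one. With the replicate number as a block, 6 members were called with Dex on water, 6 with Dex on zinc, 0 with zinc after PBS, 2 with zinc after Dex, 0 for the interaction and 2 for the averaged effect. Depth limits *Ciart*, which had 1 to 16 raw counts in the PBS libraries, and *Dbp*, which had 1 to 10 in the water-Dex libraries. It also limits *Per3*, which had 10 to 15 in the water-Dex libraries and 12 in zinc-Dex replicate 2, and *Per2*, which had 16 in water-Dex replicate 2.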
